A study of Mus musculus with 6 samples.

Results

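The cells described here are the melanoma cells with the highest expression of immediate early genes in 6 mouse tumors profiled by single-cell RNA sequencing. Each cell was given a score, the mean of log2(TPM + 1) over Fos, Fosb, Jun, Junb, Egr1, Ier2, and Atf3, with TPM as the measure of transcript abundance, scaled to one total in every cell. Within each tumor, the top 25% of cells by score were taken as high cells, so the members were selected on the values of these 7 genes. This gave 124 high cells out of 507 retained cells, from 602 deposited cells. The 252 cells in the bottom 50% of the same tumors (low cells) served for comparison, and 131 cells lay between. A cell was retained when over 1000 genes had TPM above 0 and mitochondrial genes held under 10% of its TPM.

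The tumors grew in C57BL/6 mice after 50000 cells were placed under the skin of the flanks, and all were taken on day 15. B16007 and B16008 came from B16-F10 melanoma cells without treatment (B16). B16PD1000 and B16PD1002 came from the same line, and these mice (B16PD1) received anti-PD1 at a dose of 200 μg on each of the days 5, 8, and 11. R499015 and R499016 came from Res499 without treatment (R499), a B16-F10 derivative isolated from a B16 tumor that relapsed after radiation with anti-CTLA4. CD45-negative cells were sorted and full-length Smart-seq libraries were made on the ICELL8 platform. Each condition is a transplanted cell line in 2 mice, and the age of the mice was not given in the sources used here. No chip position was shared between tumors.

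Immediate early genes are transcribed within minutes of a stimulus such as a growth factor, stress, or depolarization, from factors already present in the cell. Fos and Jun family proteins pair to form AP-1, Egr1 is a zinc finger factor driven through serum response factor, and Atf3 is a stress-responsive partner of the same bZIP class. The same genes are also induced while tissue is dissociated into single cells, and these data hold no undissociated control, so the part of dissociation was not tested.

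Promoters of the score genes are shown so that the short regulatory elements they hold can be read beside the values. RefSeq (GRCm38.p6) gave a window of 250 bases before to 50 bases after the annotated start for 5 of the 7 genes used here, the window of Egr1 was not used here, and the table used had no entry for Ier2. Capitals mark matches, on either strand, to TGACGT (the core of the cAMP response element), TGANTCA (which AP-1 binds), TATAAA (the TATA box), or the CArG box, and none of the marked matches overlap. The windows are Fos at chr12:85473640-85473939 (plus strand), Fosb at chr7:19309996-19310295, Jun at chr4:95052173-95052472, Junb at chr8:84978699-84978998, and Atf3 at chr1:191183284-191183583 (the last 4 on the minus strand).
Fos: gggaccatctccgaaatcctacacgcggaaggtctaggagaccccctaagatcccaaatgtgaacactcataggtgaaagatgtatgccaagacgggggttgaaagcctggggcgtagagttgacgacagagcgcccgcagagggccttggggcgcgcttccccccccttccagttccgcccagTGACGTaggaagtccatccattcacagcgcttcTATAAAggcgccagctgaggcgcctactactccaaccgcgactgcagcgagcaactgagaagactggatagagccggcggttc
Fosb: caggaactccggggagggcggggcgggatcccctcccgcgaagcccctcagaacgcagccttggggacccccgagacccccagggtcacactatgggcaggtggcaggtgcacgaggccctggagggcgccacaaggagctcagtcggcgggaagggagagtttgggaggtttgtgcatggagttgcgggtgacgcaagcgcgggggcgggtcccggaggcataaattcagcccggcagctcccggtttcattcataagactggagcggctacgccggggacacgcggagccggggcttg
Jun: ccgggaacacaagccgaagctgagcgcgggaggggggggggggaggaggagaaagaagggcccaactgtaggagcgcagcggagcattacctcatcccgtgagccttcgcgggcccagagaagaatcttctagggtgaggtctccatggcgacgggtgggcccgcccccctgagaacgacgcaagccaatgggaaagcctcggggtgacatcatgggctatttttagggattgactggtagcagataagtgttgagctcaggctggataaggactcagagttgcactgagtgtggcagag
Junb: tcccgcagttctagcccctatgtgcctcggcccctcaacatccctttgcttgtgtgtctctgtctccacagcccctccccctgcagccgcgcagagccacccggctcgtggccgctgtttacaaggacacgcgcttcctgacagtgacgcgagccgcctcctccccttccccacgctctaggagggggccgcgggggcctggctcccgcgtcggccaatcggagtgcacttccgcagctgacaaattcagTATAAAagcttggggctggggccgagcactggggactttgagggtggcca
Atf3: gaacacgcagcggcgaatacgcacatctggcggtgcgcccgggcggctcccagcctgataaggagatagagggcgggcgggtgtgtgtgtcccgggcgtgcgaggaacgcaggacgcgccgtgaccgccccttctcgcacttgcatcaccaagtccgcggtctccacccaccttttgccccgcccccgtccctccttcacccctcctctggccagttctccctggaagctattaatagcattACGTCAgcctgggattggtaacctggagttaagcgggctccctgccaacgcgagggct
Fos held TGACGT from base -66 and TATAAA from base -33, counted from the start. Atf3 held the TGACGT element on the opposite strand from base -8, and Junb held TATAAA from base 1. Fosb and Jun held none of these letters in the window. Of all 32851 promoter windows, 7.51% held TGACGT, 7.81% TGANTCA, 13.6% TATAAA, and 1.63% a CArG box. A match describes letters only.

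The scores formed a continuous range without a visible break between classes. The lowest score of a high cell and the highest score of a cell below it were 3.49 and 3.49 in B16007, 2.99 and 2.95 in B16008, and 2.79 and 2.76 in B16PD1000. They were 2.93 and 2.89 in B16PD1002, 2.46 and 2.46 in R499015, and 2.56 and 2.55 in R499016. In all, 73 cells lay within 0.25 of the threshold of their tumor, so the members are an upper range of a score and not a separate cell type. At the other end, 41 cells had a score of 0.

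**Figure D1:**
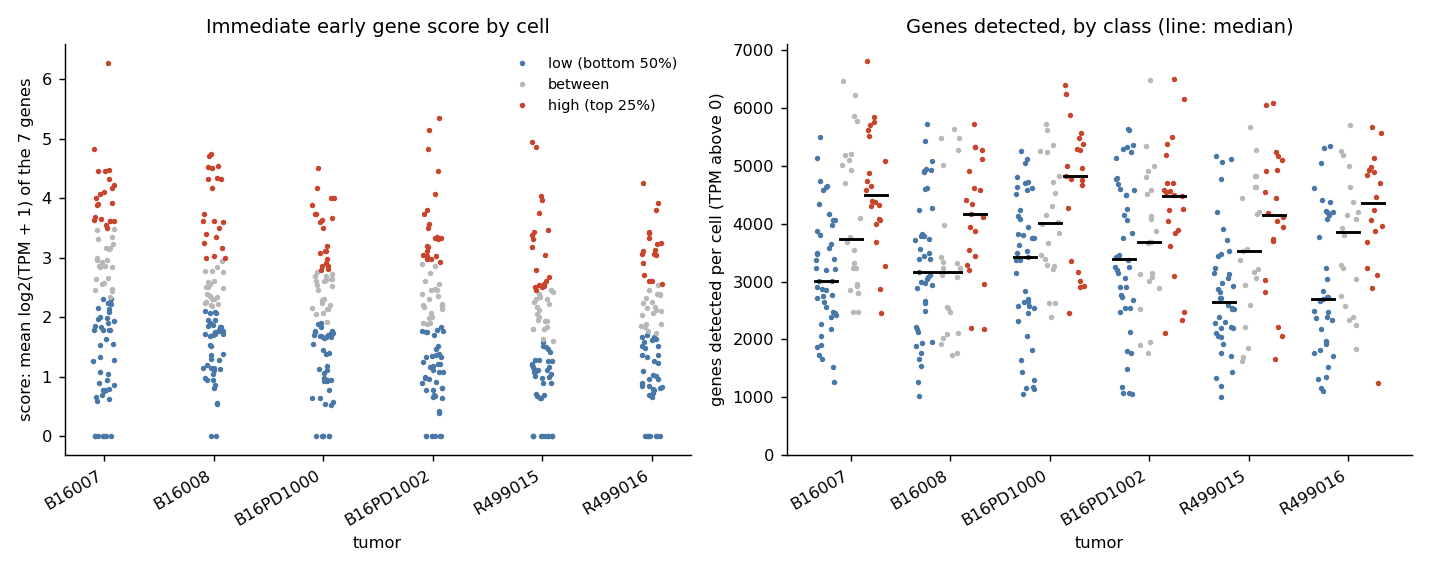
Left, the immediate early gene score (mean log2(TPM + 1) of 7 genes) of each of the 507 cells by tumor, colored by class. Right, genes detected per cell (TPM above 0) by class, with the median of each class as a line. The score runs without a gap through the threshold in each tumor, and the median of genes detected is higher in high than in low cells in all 6 tumors.

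Fos and Atf3 made up most of the score. Fos was detected in 99.2% of high cells and 68.3% of low cells, and Atf3 in 96.8% and 34.5%. The mean of Fos over high cells was 7.37 in the lowest tumor, 7.59 at the median, and 7.96 in the highest on the log2(TPM + 1) scale, against 3.02, 4.21, and 5.91 over low cells. For Atf3 the corresponding levels were 6.38, 6.78, and 7.29 in high cells and 1.31, 1.79, and 2.35 in low cells. For both genes the lowest tumor among high cells lay above the highest among low cells, as the selection favors.

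The other members of the score were sparse. Ier2, a nuclear early response protein, was detected in 48.4% of high and 4.37% of low cells, and its level in high cells ran from 1.84 to 2.84 over the tumors. Jun was detected in 59.7% and 10.3%, with 1.71 to 3.17 in high cells, and Fosb in 39.5% and 4.76%, with 0.48 to 2.09. Egr1 was detected in 34.7% and 5.16%, with 0.76 to 2.33. Junb was detected in 54.0% and 10.3%. Junb stood apart in R499016, where its level was 0.72 in high cells and 0.63 in low cells. In the other 5 tumors its level in high cells was 3.31, 2.69, 1.73, 3.37, and 3.28, in the order B16007, B16008, B16PD1000, B16PD1002, R499015. All of these class differences describe the selection and were not tested.

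**Figure D2:**
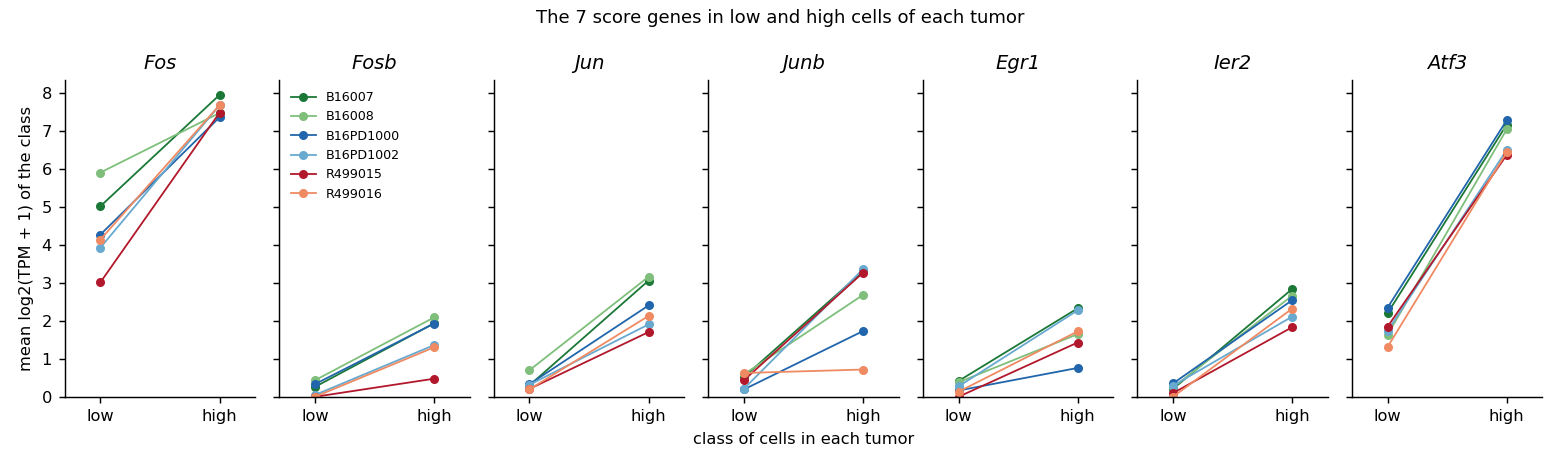
Mean log2(TPM + 1) of each score gene over the low and the high cells of each tumor, one line per tumor. Fos and Atf3 reach the highest levels in high cells, the other 5 genes reach at most 3.37, and Junb in R499016 is nearly level (0.63 and 0.72).

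By selection, a high cell typically held several of the score genes at once. The median number of score genes detected was 4 in high cells and 1 in low cells, and 98 of the 124 high cells (79.0%) held 4 or more, against 2 of the 252 low cells (0.794%). These counts follow from choosing cells on the same genes, do not hold genes detected, and were not tested. Within tumors, the correlation between score genes across cells was weak. With a linear term for the number of genes detected removed, the mean of the 6 within-tumor Pearson correlations was positive for all 21 pairs but ran only from 0.015 (Junb with Egr1) to 0.20 (Jun with Atf3), with a median of 0.087 over pairs. The value was positive in all 6 tumors for 5 of the 21 pairs, and the lowest in a single tumor was -0.20 (Junb with Atf3). These correlations span 507 cells whose values share depth and dropout, and they are given as a description.

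High cells had more genes detected, which bears on every comparison of the classes. The median was 4491 against 3012 genes in B16007, 4164 against 3160 in B16008, and 4832 against 3427 in B16PD1000. It was 4485 against 3394 in B16PD1002, 4152 against 2649 in R499015, and 4355 against 2703 in R499016. The mean difference was 1356 ± 253 genes (SD, n = 6 tumors), higher in 6 of 6 (exact sign-flip permutation test, two-sided p = 0.03125, the smallest it can give). The correlation of score with genes detected was between 0.31 and 0.53 within tumors. The number of genes was therefore held as a linear covariate within each tumor in the fits of high minus low differences below, unless stated otherwise, and not in the levels or shares of either class. The mitochondrial share of TPM differed by 0.541 ± 0.566 percentage points (SD, n = 6 tumors), higher in 5 of 6 (p = 0.09375 by the same exact test).

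The melanoma identity of the members was checked with markers. The median cell of both classes held all 7 melanoma markers (Tyrp1, Dct, Mlana, Pmel, Tyr, Sox10, Mitf), and their summed log2(TPM + 1) per tumor was 63.2 to 67.7 in high cells and 61.9 to 64.6 in low cells. Markers of other cell types were more frequent in high cells. These shares and sums do not hold genes detected, which were more in high cells. Among the melanoma markers, Sox10 was detected in 78.2% of high and 57.9% of low cells and Mitf in 98.4% and 89.3%, while Mlana was in 99.2% and 100%. In the lists of other cell types: at least 3 markers were detected in 17 high cells (13.7%) and 6 low cells (2.38%). The summed level of 21 immune markers was 3.03 to 12.2 over tumors in high cells and 1.28 to 3.37 in low cells, with the highest value in B16007. Of these 21 markers, 6 were at 0 in high cells, the pan-leukocyte marker Ptprc was detected in 1 high cell, and the most frequent was Cd74 (30.6% of high and 16.3% of low cells), an antigen presentation chaperone. Cd68, a macrophage marker, was detected in 26.6% and 11.5%, and Csf1r, C1qb, and Laptm5 each in 3.23% of high cells, against 0.794%, 0.397%, and 0.397% of low cells. The summed level of 7 endothelial markers was 1.14 to 2.77 in high and 0.80 to 2.36 in low cells, led by Egfl7 in 27.4% of high and 18.7% of low cells, while Pecam1 was at 0 in high cells. The 9 fibroblast markers summed to at most 0.72 in high cells, with Col1a1 at 0, and all 6 keratinocyte markers were at 0.

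Each score gene was then left out of the score in turn, and the high and low cells were chosen anew by the other 6 genes. This gives a measure of the gene that did not enter the choice. Atf3 was 2.43 higher on the log2(TPM + 1) scale in cells chosen without it (SE 0.30, limma adjusted p = 0.00399), with differences from 1.83 to 3.24 in the 6 tumors, and it had the smallest p of all 11258 genes in that fit. The remaining 6 did not pass an adjusted p of 0.05. Fos differed by 1.37 (SE 0.30, adjusted p = 0.146), Jun by 1.01 (SE 0.24, adjusted p = 0.164), and Fosb by 0.80 (SE 0.17, adjusted p = 0.154), each higher in 6 of 6 tumors. Ier2 differed by 0.81 (SE 0.24, adjusted p = 0.299), Junb by 0.66 (SE 0.30, adjusted p = 0.599), and Egr1 by 0.65 (SE 0.20, adjusted p = 0.332), each higher in 5 of 6 tumors. The exceptions were R499016 for Junb (-1.06) and Ier2 (-0.14) and B16PD1000 for Egr1 (-0.18).

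In these fits the share of all genes called was 0.0355% with Fos left out, 0.0355% with Fosb, 0.0178% with Jun, 0.0178% with Junb, 0.0266% with Egr1, 0.0355% with Ier2, and 0.00888% with Atf3, which was the single call of its fit. Without the covariate for genes detected all 7 passed, as did 21.6% (Jun left out) to 25.6% (Junb left out) of all 11258 genes in those fits. Without tumor B16PD1002 Atf3 no longer passed and 0 of the 7 did.

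**Figure D3:**
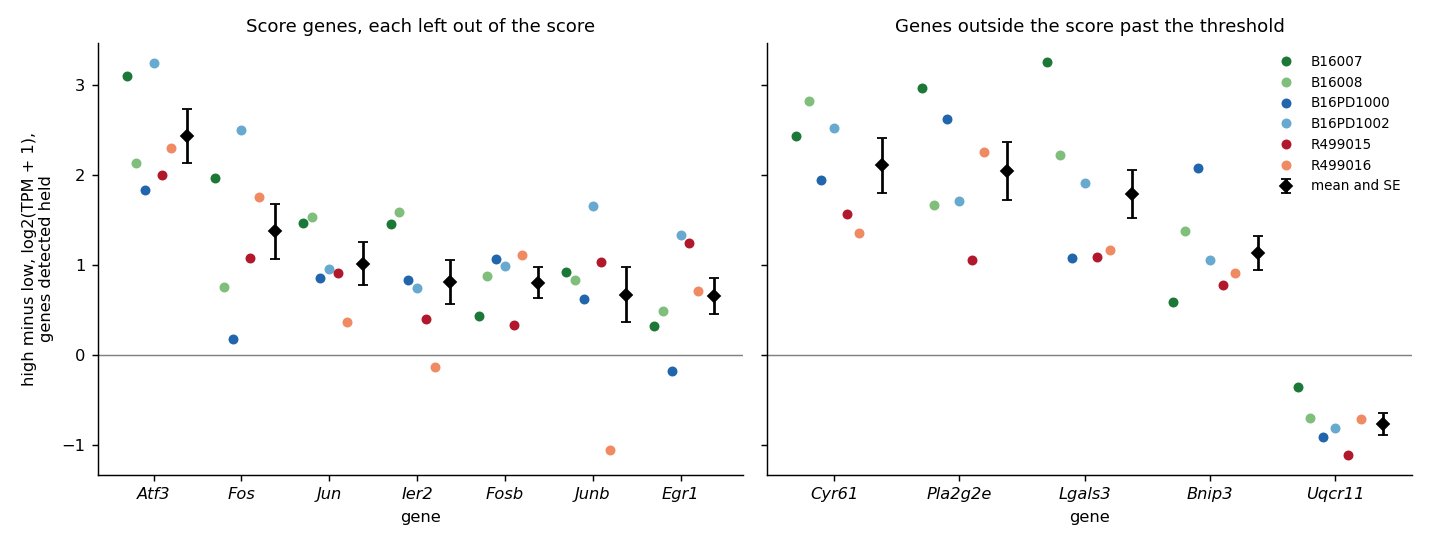
Difference between high and low cells in log2(TPM + 1), with genes detected held, in each tumor (colored points) and as the mean with its moderated standard error from limma (black). Left, each score gene in cells chosen by the other 6, and right, the 5 genes outside the score past the threshold. Atf3 lies between 1.83 and 3.24 in all tumors, and the 5 genes on the right have the same sign in all 6 tumors.

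Outside the score, 4 genes were higher and 1 was lower in high cells at an adjusted p of 0.05 by limma on the 6 tumor differences. These are 0.0355% and 0.00888% of the 11257 genes tested. At an unadjusted p of 0.05, 497 genes were higher (4.42%) and 470 lower (4.18%). Separate cultures or litters behind the 6 mice are not described. The p-values measure the spread between these tumors, with the variance of each gene drawn toward a trend over all genes. Without that trend 0 genes passed as higher and 0 as lower.

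Cyr61 (chromosome 3, 145646976 to 145649981, minus strand, GRCm38) encodes a secreted matricellular protein and is itself an early response gene. Its mean level in high cells was 4.11 in the lowest tumor, 5.67 at the median, and 6.70 in the highest, and 1.80, 3.20, and 3.31 in low cells. Levels of this gene and of those below do not hold genes detected. Without that covariate, 89.9% of all genes had a positive difference. With genes detected held, the difference was 2.11 (SE 0.30, adjusted p = 0.0170), from 1.36 in R499016 to 2.83 in B16008.

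Pla2g2e (chromosome 4, 138877942 to 138882817, plus strand), a secreted phospholipase A2, was detected in 71.8% of high and 32.9% of low cells. Its level was 4.22, 4.86, and 6.02 (lowest, median, highest tumor) in high cells and 1.18, 2.29, and 3.39 in low cells. The difference was 2.04 (SE 0.32, adjusted p = 0.0170). Its promoter window, shown for its match to AP-1, lies at chr4:138877692-138877991 on the plus strand.
Pla2g2e: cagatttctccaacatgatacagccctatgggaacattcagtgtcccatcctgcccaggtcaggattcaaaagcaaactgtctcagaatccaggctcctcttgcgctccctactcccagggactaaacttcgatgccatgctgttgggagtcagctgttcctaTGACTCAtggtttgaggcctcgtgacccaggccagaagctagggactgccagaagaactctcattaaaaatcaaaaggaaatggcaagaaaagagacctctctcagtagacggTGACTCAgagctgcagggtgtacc
The capitals mark TGANTCA from base -87 and from base 27, a motif that 7.81% of all windows held, and a match describes letters only. The windows of Lgals3, Bnip3, and Uqcr11 held 0 matches to the motifs searched, and the table used had no entry for Cyr61.

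Lgals3 (chromosome 14, 47367751 to 47386160, plus strand), encoding galectin-3, a secreted lectin, was abundant in both classes. Its level was 8.05, 9.0, and 9.70 in high cells and 5.47, 7.02, and 7.95 in low cells, and the difference was 1.79 (SE 0.27, adjusted p = 0.0170). The lowest high value lay just above the highest low value, in levels without genes detected held, and this was not counted over all genes.

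Bnip3 (chromosome 7, 138890836 to 138909519, minus strand) encodes a mitochondrial BH3 protein induced by hypoxia. It was detected in all high cells, with levels of 9.74, 10.04, and 10.40 in high cells and 8.40, 8.59, and 9.22 in low cells. The difference was 1.13 (SE 0.19, adjusted p = 0.0344), between 0.59 in B16007 and 2.08 in B16PD1000.

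Uqcr11 (chromosome 10, 80402997 to 80406830, minus strand), a small subunit of respiratory complex III, was the gene that passed as lower, by -0.77 (SE 0.12, adjusted p = 0.0170), and was lower in 6 of 6 tumors with genes detected held. Its class levels overlapped, at 10.47, 10.72, and 11.20 in high cells and 10.48, 11.17, and 11.55 in low cells, and without the covariate the difference was -0.34.

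The calls rested on the full set of 6 tumors. With B16007, B16008, B16PD1000, B16PD1002, or R499016 left out, 0 genes passed as higher, and 4 passed without R499015. Of these 4, 3 were among the genes above (Cyr61, Pla2g2e, and Lgals3). As lower, 1 gene (Uqcr11) passed without B16007 and 0 without any other tumor. Bnip3 passed in 0 of the 6 fits that left out a tumor. Without the 33 cells that held 3 or more markers of other cell types, and with the classes chosen anew, 7 genes passed as higher and 2 as lower, including all 5 of the genes above, so these differences were as large without those cells (Cyr61 2.28, Pla2g2e 2.29, Lgals3 1.81, Bnip3 1.17, Uqcr11 -0.84).

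Other immediate early and early response genes lay above the background as a list. Of 37 tested, 35 had a positive difference, 22 had an unadjusted p under 0.05 as higher and 0 as lower, and 1, Cyr61, passed after adjustment. Of all genes, 48.9% were positive, 4.42% had an unadjusted p under 0.05 as higher, and 4.18% as lower. The median difference of the list was 0.44, against -0.0054 over all genes. Among the 3 most abundant, Klf6 (a zinc finger factor) differed by 1.68 (SE 0.34, adjusted p = 0.116), Ier3 by 1.53 (SE 0.33, adjusted p = 0.129), and Id2 by 0.34 (SE 0.22, adjusted p = 0.682). Further members, named after their values were seen, were Sgk1 at 1.47, Ppp1r15a at 1.26, Myc at 0.96, Nr4a1 at 0.89, and Dusp1 at 0.79, none past the adjusted threshold. R499016 stood apart, with 22 of the 37 positive against 29 to 31 in the other 5 tumors, and Nr4a1 (-0.87), Dusp1 (-0.98), and Sgk1 (-0.54) were negative there and positive in the other 5.

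Genes that end the early response, and partners of AP-1, had positive medians over the mean of the 6 tumors, but the median was -0.30 in R499016 for the former and 0 in R499015 for the latter. Over all genes, 48.9% were positive and 4.42% had an unadjusted p under 0.05 as higher. Of 8 transcript decay and anti-proliferative genes, 6 had a positive difference and 3 an unadjusted p under 0.05, with a median of 0.33. Zfp36, which promotes decay of AU-rich transcripts, differed by 0.96 (SE 0.38), Zfp36l1 by 0.36 (SE 0.32), and Tob2 by 0.25 (SE 0.27), and none passed after adjustment. Of 15 AP-1 and bZIP partners outside the score, 11 were positive, 4 had an unadjusted p under 0.05, and the median was 0.26. Their most abundant members were Atf4 (0.48, SE 0.19), Nfe2l2 (-0.26, SE 0.32), and Atf2 (-0.32, SE 0.30).

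The kinases and factors upstream of these genes lay near the background in their transcripts. For 18 ERK and SRF pathway genes the median difference was -0.067 and 8 were positive, with Nras at 0.14 (SE 0.29), Araf at -0.30 (SE 0.30), and Map2k1 at -0.19 (SE 0.30). For 11 JNK and p38 stress kinases the median was -0.012 and 5 were positive, with Map2k3 at 0.25, Map2k4 at -0.43, and Map3k1 at 0.56. For 13 MAPK feedback genes the median was 0.082 and 8 were positive. Among their most abundant members, Dusp6, a phosphatase of ERK, differed by 0.06 (SE 0.28) and Ccnd1 by -0.24 (SE 0.32), whereas Phlda1 differed by 1.17 (SE 0.33, adjusted p = 0.280). Transcript levels do not measure kinase activity.

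Hypoxia and glycolysis genes had the highest median of the 18 lists with this score and covariate, and the order of the first places varied with the setting. The early response median was the higher of the pair in 9 of 33 alternatives. Among these was the covariate of the hypoxia list mean, which lowers that list by construction (median -0.04). The fits without a gene filter or without the limma trend repeat the medians of the main fit, so the count does not weigh separate settings. All 20 tested had a positive difference, 11 had an unadjusted p under 0.05 as higher and 0 as lower, and the median was 0.57. Over all genes, 48.9% were positive, 4.42% had an unadjusted p under 0.05 as higher, and 4.18% as lower. Bnip3 passed after adjustment. The most abundant members had small differences, with Aldoa, a glycolytic enzyme, at 0.33 (SE 0.08, adjusted p = 0.212), Ldha at 0.20 (SE 0.09), and Eno1 at 0.06 (SE 0.09). Members with higher values, named after their values were seen, were Ero1l at 1.56 (SE 0.29, adjusted p = 0.0652), Ndrg1 at 1.53, Car9 at 1.12, Vegfa at 0.82, and Slc2a1 at 0.78. The median difference over members was positive in each tumor, from 0.36 in B16PD1002 to 0.71 in B16PD1000.

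**Figure D4:**
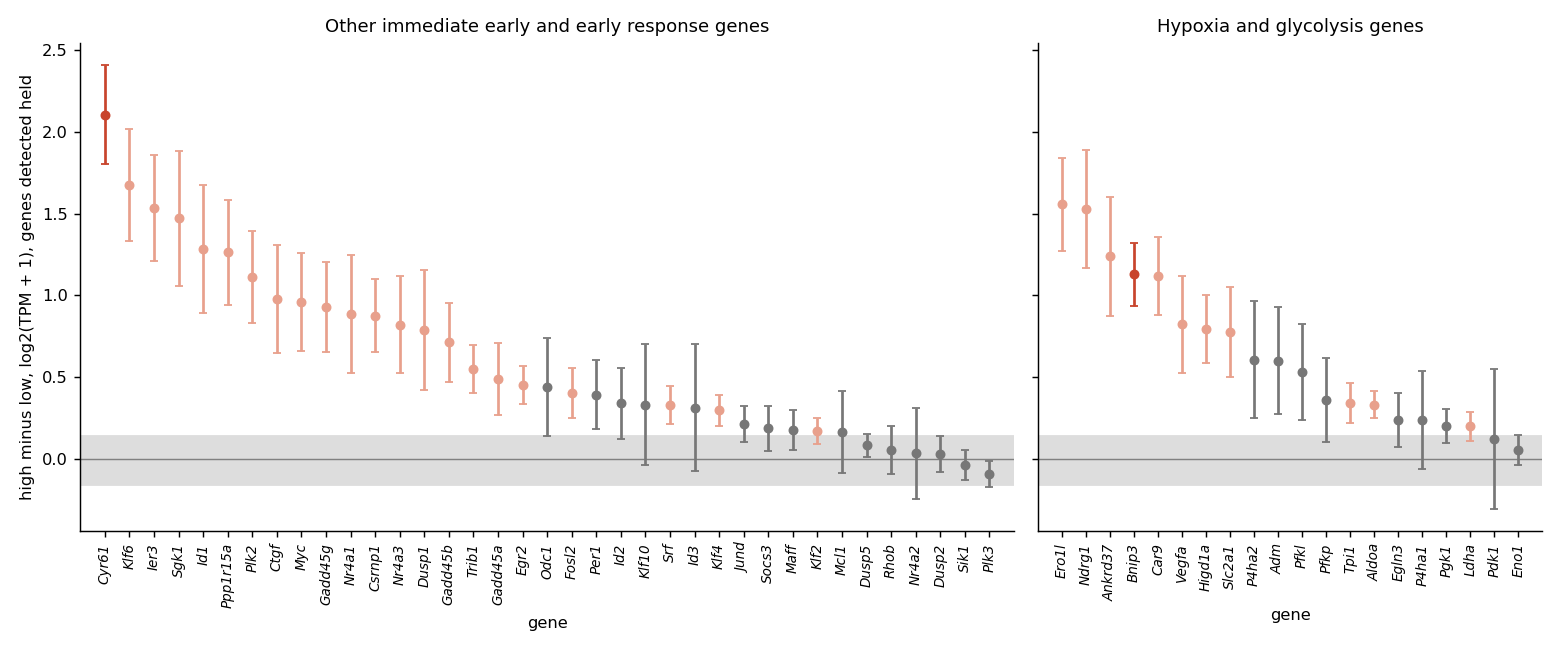
Difference between high and low cells in log2(TPM + 1), with genes detected held, for each tested member of the early response list (37 genes) and the hypoxia and glycolysis list (20 genes), with the moderated standard errors of limma. Dark red marks an adjusted p under 0.05, light red an unadjusted p under 0.05, and the gray band spans the quartiles of all genes (-0.16 to 0.14). All 20 hypoxia and glycolysis genes and 35 of the 37 early genes lie above 0.

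The hypoxia values varied with the genes in the score. With Atf3 left out, 6 of the 20 genes had an unadjusted p under 0.05 as higher and the median was 0.29, and with Fosb and Atf3 left out 3 did and the median was 0.22. With any other single gene left out, 10 to 15 did and the median was 0.46 to 0.71. Over all 11257 genes, 436 had an unadjusted p under 0.05 as higher with Atf3 left out, and 413 with Fosb and Atf3 left out. With any other single gene left out, 482 to 519 of all genes did. Of the 37 early response genes, 15 had an unadjusted p under 0.05 as higher with Atf3 left out (median 0.38) and 16 with Fosb and Atf3 left out (median 0.35), all of them among the 22 named by the full score. With the mean of the hypoxia and glycolysis list, without Aldoa, held as a second covariate, 32 of the 37 early genes were positive, 16 had an unadjusted p under 0.05, and the median was 0.37, while 0 genes passed after adjustment. Differences between these scores were not tested.

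The list of heat shock and chaperone genes was mixed, and that of ATF4 and unfolded protein response genes had a higher median. Early response genes, which dissociation can also induce, are given above, and the part of dissociation was not tested. Over all genes, 48.9% were positive, 4.42% had an unadjusted p under 0.05 as higher, and 4.18% as lower. Of 20 heat shock and chaperone genes from dissociation signatures, 12 were positive, 4 had an unadjusted p under 0.05 as higher and 1 as lower, and the median was 0.092. Among the most abundant were Ubb (-0.08, SE 0.08) and Hspa8 (-0.08, SE 0.11). Hspa1b, an inducible HSP70 gene named after its value was seen, differed by 0.70 (SE 0.18, adjusted p = 0.212), higher in 6 of 6 tumors. Of 18 ATF4 and unfolded protein response genes, 13 were positive, 5 had an unadjusted p under 0.05, and the median was 0.33, with Slc3a2, an amino acid transporter chain, at 0.44 (SE 0.20) and Hspa5, an ER chaperone, at -0.10 (SE 0.18).

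The p53 target list had a median of -0.0072 over 11 genes, with 5 positive. Its most abundant members diverged, Cdkn1a, a cyclin-dependent kinase inhibitor, at 1.77 (SE 0.33, adjusted p = 0.0652), Bax, a pore-forming apoptosis protein, at 1.13 (SE 0.33, adjusted p = 0.300), and Ccng1 at -0.42 (SE 0.28). Of 13 NF-kB targets 7 were positive, with a median of 0.075, and Nfkbia differed by 0.95 (SE 0.44), Sod2 by -0.06 (SE 0.29), and Bcl10 by 0.08 (SE 0.30).

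Interferon and antigen presentation genes lay close to the background. Of 25 interferon-stimulated genes 13 were positive and the median was 0.038, with Ifi27 at 0.59 (SE 0.23), Lgals3bp at -0.53 (SE 0.33), and Bst2 at -0.26 (SE 0.31). Of 13 MHC class I presentation genes 8 were positive and the median was 0.12, with B2m at 0.14 (SE 0.15), Canx at -0.17 (SE 0.18), and Calr at -0.05 (SE 0.22).

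Lineage and cell cycle lists had negative medians with few members past an unadjusted p. For 16 melanocyte lineage genes the median was -0.15 and 3 were positive, and the abundant pigment genes Dct (-0.04), Tyrp1 (-0.09), and Pmel (-0.04) differed by less than their standard errors of 0.10, 0.11, and 0.12. For 23 S phase genes the median was -0.25 with 3 positive, and for 24 G2/M genes it was -0.17 with 5 positive. The S phase median was negative in B16007, B16008, and B16PD1000 (-0.43, -0.70, and -1.05) and positive in B16PD1002, R499015, and R499016 (0.13, 0.18, and 0.051). Pcna differed by 0.32 (SE 0.27), Rrm1 by -0.65 (SE 0.31), and Rrm2 by -0.14 (SE 0.34) in the S phase list. In the G2/M list Tubb4b differed by 0.03 (SE 0.26), Cks1b by -0.51 (SE 0.32), and Cdk1 by -0.03 (SE 0.38).

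The mitochondrially encoded protein genes had a median of -0.14 over 13 genes, 4 of them positive, with mt-Atp6 at -0.08 (SE 0.09), mt-Co3 at -0.16 (SE 0.11), and mt-Co2 at -0.16 (SE 0.12). Of 6 long nuclear and housekeeping RNAs all were positive, with a median of 0.34, including Gapdh at 0.35 (SE 0.08, adjusted p = 0.202), Actb at 0.16 (SE 0.09), and Eef1a1 at 0.03 (SE 0.08). Of the nuclear RNAs in this list, given after their values were seen, Malat1 differed by 1.20 (SE 0.30, adjusted p = 0.212), higher in 6 of 6 tumors, and Neat1 by 0.33 (SE 0.16, adjusted p = 0.573), higher in 5 of 6. Apart from Cyr61 and Bnip3, no member of the 18 lists passed after adjustment, and several genes stand in more than one list.

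**Figure D5:**
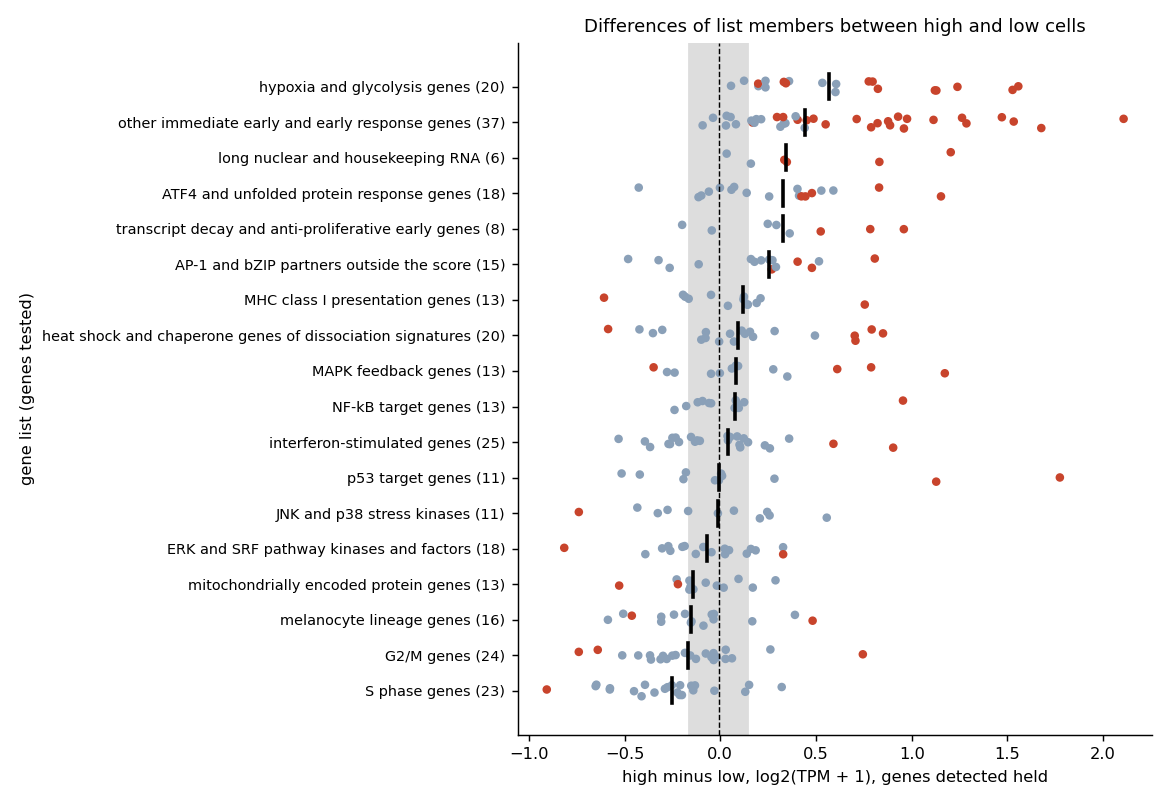
Difference between high and low cells in log2(TPM + 1), with genes detected held, for the tested members of 18 gene lists, ordered by their median (black bar). Red points have an unadjusted p under 0.05, the gray band spans the quartiles of all 11257 genes, and the dashed line is their median. Hypoxia and glycolysis (0.57) and other early response genes (0.44) have the highest medians in this fit, and S phase genes the lowest (-0.25). The order of the highest pair turned in 9 of 33 alternatives, among them the covariate of the hypoxia list mean, which lowers that list by construction.

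The level of the score itself was compared between conditions over all retained cells, since a fixed share of each tumor was selected and the level between tumors did not enter the choice. The mean score was 2.39 in B16007 and 2.28 in B16008, 2.03 in B16PD1000 and 1.97 in B16PD1002, and 1.73 in R499015 and 1.79 in R499016. The 3 conditions did not overlap, with 2.33 ± 0.075 for B16, 2.0 ± 0.044 for B16PD1, and 1.76 ± 0.041 for R499 (SD, n = 2 tumors each). The difference in mean score was not tested, and how often other genes separate the conditions in this way was not counted. These means do not hold genes detected. The median of genes detected was 3647 and 3388 for the B16 tumors, 3808 and 3838.5 for the B16PD1 tumors, and 3141 and 3682 for the R499 tumors. With one threshold over all cells (2.86), 39.6% and 25.6% of B16 cells, 22.1% and 27.3% of B16PD1 cells, and 13.6% and 18.7% of R499 cells would be members. Shares of B16 and B16PD1 overlapped.

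By gene, the difference between conditions did not pass after adjustment over 11264 genes. In R499 against B16, Fosb differed by -0.73 (SE 0.19, limma adjusted p = 0.224), with 1.03 and 0.95 in the B16 tumors and 0.16 and 0.36 in the R499 tumors. Jun differed by -0.74 (SE 0.24, adjusted p = 0.339), with 1.34 and 1.64 against 0.70 and 0.80. Fos differed by -0.99 (SE 0.35, adjusted p = 0.369), with 6.32 and 6.56 against 5.02 and 5.88. These 3 had an unadjusted p under 0.05, as did 10.5% of all genes in this contrast, and 0.0621% of all genes passed after adjustment. Junb, Egr1, Ier2, and Atf3 differed by -0.40, -0.35, -0.34, and -0.47. Subtracting the mean of each cell moved the median over all genes in this contrast from -0.07 to 0.03, and the 7 score genes stayed negative in 8 of 8 alternatives. Among these, the fit without the limma trend could not turn a sign. Nor could leaving out 1 tumor where the tumors of the conditions did not overlap.

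In B16PD1 against B16, which share the B16 tumors with the contrast above, 0 genes passed by limma (0% of genes), with 531 at an unadjusted p under 0.05 (4.71%), of which Jun was the 1 score gene (-0.52, SE 0.24, adjusted p = 0.989). The differences of Fos, Fosb, Junb, Egr1, and Ier2 were -0.72, -0.34, -0.32, -0.28, and -0.15, and that of Atf3 was -0.02 and turned positive in 2 of 8 alternatives.

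Whether the difference between high and low cells depended on the condition was tested on the same 6 tumor differences. By limma, 0 genes (0%) passed for B16PD1 against B16, with 553 at an unadjusted p under 0.05 (4.91% of 11257 genes). For R499 against B16, 0 (0%) passed, with 628 at an unadjusted p under 0.05 (5.58%). The smallest p for B16PD1 belonged to Rps21 (-3.23, adjusted p = 0.328), Cdk2ap2 (-4.16, adjusted p = 0.622), and Nol9 (1.46, adjusted p = 0.622), and for R499 to Tspan17 (-1.77), Tatdn1 (3.49), and Idnk (-3.33), each with an adjusted p of 0.862. Among the 5 genes above, Lgals3 differed most between conditions, with high minus low differences of 3.25 and 2.22 for the B16 tumors, 1.08 and 1.91 for the B16PD1 tumors, and 1.08 and 1.17 for the R499 tumors (R499 against B16 -1.61, SE 0.55, adjusted p = 0.862). Cyr61 had 2.43 and 2.83 in B16 and 1.56 and 1.36 in R499 (-1.17, SE 0.72, adjusted p = 0.878).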

How the data were processed

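Reads were aligned with STAR, quantified with RSEM, and used for variant calls with GATK on mm10 per the submitters' processing notes (versions not given in the sources used here). The authors deposited TPM per gene and cell, for 25215 genes in 602 cells, before any filter. TPM keeps no read count, so the depth in reads is unknown and the study's minimum of mapped reads was not applied. Of the gene IDs, 25103 matched the reference table, 51 entries repeat a symbol, and 0 columns were unused. Column names carry tumor numbers, which give the condition but not which labelled sample of it.

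Genes with TPM above 0 in more than 5 of the 507 retained cells were analysed (11264, of which 11257 outside the score). In each tumor, log2(TPM + 1) was regressed on class and genes detected, and the 6 coefficients were tested with limma 3.58.1 in R 4.3.3 (eBayes with trend, two-sided, Benjamini-Hochberg, threshold 0.05). SE is the moderated standard error of limma, in which the variance of a gene is drawn toward a trend over all genes. Conditions were compared with 1 mean each over all 6 tumors. Levels used tumor means. Genes detected and mitochondrial share were tested by exact sign flips. Other steps were run in Python 3.11.15 (matplotlib 3.10.9, scipy 1.17.1, pandas 2.3.3, numpy 2.4.6). Scripts were tested on simulated data. Positions are from GENCODE M21 on GRCm38. Doublets were not called.

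The members and the 18 gene lists were chosen with earlier results of these data known. Genes named are the score genes, those past the threshold with 1 sign in 6 tumors, every list's 3 most abundant genes, and the 3 smallest p-values of each condition contrast, with exceptions marked. One gene that this rule names is not reported here.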

Additional observations from a re-analysis of the deposited data

How the results depend on the processing

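The direction of Cyr61, Pla2g2e, Lgals3, Bnip3, and Uqcr11 was kept in 33 of 33 alternatives each, but the adjusted p passed in 21, 13, 21, 9, and 8 of them. Several alternatives could not turn the direction. The fits without a gene filter, without the limma trend, or with only genes in at least 10% of cells reuse the same tumor differences. Leaving out 1 tumor cannot turn a sign shared by all 6. Genes higher and genes lower in high cells (4 and 1 as reported) numbered 2997 and 8 without the covariate for genes detected, where 89.9% of all genes were positive and the median of all genes was 0.34. They numbered 6 and 0 with cells matched in 4 bins of genes detected, 4 and 0 with members taken by the residual of the score, 8 and 0 for the slope on the score, and 1 and 0 for the top 10%. They numbered 0 and 0 with low cells as the bottom 25%, without Fosb and Atf3 in the score, without a gene filter, or without the limma trend. Pseudocounts of 0.1 and 10 gave 1 and 0, and 2 and 0. Testing only genes in at least 10% of cells gave 20 and 3. Cells over 2000 genes gave 4 and 0, a mitochondrial share under 5% gave 5 and 0, and removal of cells with other markers gave 7 and 2. Chosen after seeing the data, the hypoxia covariate gave 0 and 0, and scores without Jun or Junb gave 2 and 0, without Egr1 3 and 0, without Ier2 4 and 0, and without Atf3 0 and 0. Leaving out 1 tumor gave 0 to 4 higher and 0 to 1 lower, 0 to 1 held-out score genes called (7 without the covariate), and 1296 to 1426 more genes detected (exact p = 0.0625, the smallest possible with 5 tumors). The causes were not tested. No call changed sign, but without the covariate the S phase, G2/M, melanocyte, and mitochondrially encoded medians were 0.29, 0.32, 0.11, and 0.42, against negative values with it. No paired analysis was possible between conditions because the columns carry tumor numbers and not the replicate numbers of the labels, whereas high and low cells were compared within each tumor.

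TPM keeps no read count, so a value of 0 in a cell gives no upper limit for the transcript, which bears most on Fosb, Egr1, and Ier2.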

Other observations

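When only the genes detected in at least 10% of cells were tested (8132 genes), 20 genes were higher and 3 lower in high cells at an adjusted p of 0.05 by limma. This setting gave the most calls of those that held genes detected. The genes it called are named after their values were seen. Beside the 5 genes of the report, the higher genes included Tnfrsf12a (1.98, SE 0.38), the receptor of TWEAK, Nppb (1.85, SE 0.34), a natriuretic peptide, Cdkn1a (1.77, SE 0.33), Klf6 (1.68, SE 0.34), Zyx (1.58, SE 0.34), a focal adhesion protein, Ero1l (1.56, SE 0.29), an ER oxidase, and Ier3 (1.53, SE 0.33). With smaller differences they included Car9 (1.12), a carbonic anhydrase of hypoxic cells, Rgs2 (0.99), Bcl6 (0.75), Mt1 (0.51), a metallothionein, and Gapdh (0.35). The remaining higher genes were Lhfp (1.57), Rnf19a (1.36), Crebrf (1.05), and Zgpat (0.87). The other lower genes were H2afz (-0.94, SE 0.17), a histone variant, and Cdc123 (-1.21, SE 0.27).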
